A study of Homo sapiens with 19 samples.

Results

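The 6 MEIS and PBX homeobox cofactor genes MEIS1, MEIS2, MEIS3, PBX2, PBX3 and PBX4 were examined in the H3K27ac peak lists of 4 human leukaemia cell lines. They were taken by name from the GENCODE annotation (version 44, hg38), in which they are 6 of 20033 protein-coding genes on chromosomes 1 to 22, X and Y. For every member, peaks were counted within 500 bp of each annotated transcription start site (TSS), inside the gene body, and within 100 kb on either side, which together with the body is called the window. H3K27ac, acetylation of lysine 27 of histone H3, is a mark of active promoters and enhancers, and a peak is a stretch in which immunoprecipitated reads were enriched over the local background.

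MEIS and PBX proteins belong to the TALE class of homeodomain transcription factors. They bind DNA together with each other and with HOX proteins, to which they add affinity and selectivity. In blood, MEIS1 and HOXA9 are active in stem and progenitor cells and fall during differentiation, and their persistent expression together is a classical driver of acute myeloid leukaemia (AML), in which PBX3 is a further partner of HOXA9.

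The study asked whether endogenous retroviruses act as enhancers in AML, and it used H3K27ac in cell lines as a readout of active regulatory regions. HL-60, Molm13 and OCI-AML3 are lines from patients with AML, and K562 is an erythroid-like line from chronic myeloid leukaemia in blast crisis. All were cultured in RPMI medium. HL-60 and Molm13 were untreated, whereas OCI-AML3 and K562 had been transduced with a lentiviral dCas9-KRAB-mCherry vector, followed by an empty sgRNA vector with a BFP reporter, and sorted for both colours. Vector and cell line therefore cannot be told apart, and no line had a second library, so the values below carry no SD and no test between lines was possible. The HL-60 list was the shortest with 20814 peaks, and those of Molm13, K562 and OCI-AML3 held 35206, 37484 and 37606, covering 24.1 to 76.9 Mb, and the number of reads behind them was unknown. A missing peak therefore means that no peak was listed, not that the mark was absent. Against their lineage markers, the 6 erythroid genes examined had TSS peaks in K562 and in none of the AML lines. The 6 myeloid genes were all marked in Molm13 and OCI-AML3, while HL-60 had 4 of 6 and K562 had 4 of 6. Of 4 B lymphoid genes, 3 were marked in HL-60 and K562 and 2 in Molm13 and OCI-AML3, and none of 4 T lymphoid genes was marked in any line.

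A peak at a TSS was listed for 2 of the 6 members in HL-60 (MEIS2 and PBX2), for 4 in Molm13 and in OCI-AML3 (MEIS1, MEIS2, PBX2 and PBX3), and for 3 in K562 (MEIS1, MEIS2 and PBX2). Among all protein-coding genes the corresponding shares were 44.7% (HL-60), 53.9% (Molm13), 57.7% (OCI-AML3) and 55.9% (K562). With only 6 members, the number marked was not far from these shares in any line. The shares are not a like background, since a gene with more start sites has more chances of a peak. The members have 88 annotated start sites over 6 genes, against 146431 over the 20033 protein-coding genes. The members differed in which lines they were marked in. PBX3 was marked in Molm13 and OCI-AML3 only, a pattern shared by 2.78% of protein-coding genes. MEIS1 was marked in Molm13, OCI-AML3 and K562 but not in HL-60, as were 7.15% of genes. MEIS2 and PBX2 were marked in all 4 lines, as were 40.5% of genes, and MEIS3 and PBX4 in none, as were 35.4%.

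Over the 6 gene bodies together, peaks covered 145951 bp in OCI-AML3, 108462 bp in Molm13, 33379 bp in K562 and 2500 bp in HL-60. The median covered share of a member's body was 18.8% in OCI-AML3, 13.8% in Molm13, 3.15% in K562 and 0% in HL-60, against medians over all protein-coding genes of 2.43%, 1.74%, 2.61% and 0.260%. The median of the members thus lay above that of all genes in OCI-AML3 and Molm13, near it in K562 and at 0% in HL-60. The medians of OCI-AML3 and Molm13 describe no single member, since they fall between MEIS2, MEIS3 and PBX4, with 0% to 2.65% of the body covered in these lines, and MEIS1, PBX3 and PBX2, with 27.5% to 68.7%. Of the 88 annotated start sites of the members, 45 were marked in OCI-AML3, 35 in Molm13, 33 in K562 and 12 in HL-60. Among the 146431 start sites of all protein-coding genes, the marked shares were 44.7% in OCI-AML3, 41.6% in Molm13, 44.6% in K562 and 34.0% in HL-60. Start sites of 1 gene often share a peak and are not independent. MEIS1 and PBX3 supplied most of the covered sequence in Molm13 and OCI-AML3.

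**Figure D1:**
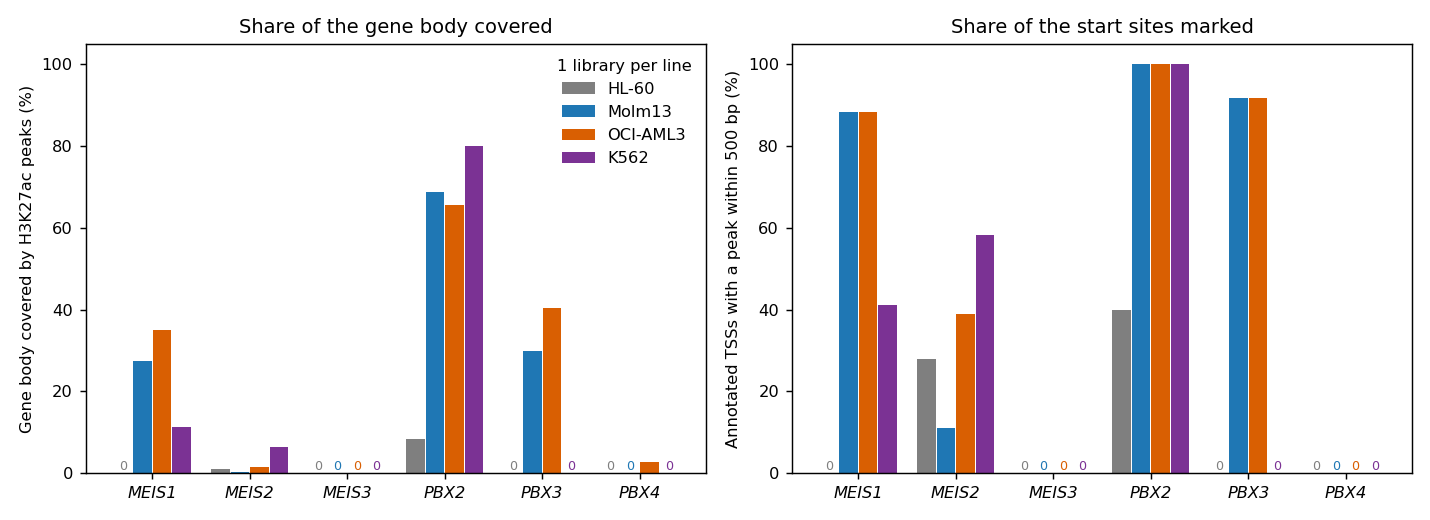
Share of the gene body covered by H3K27ac peaks (left, %) and share of annotated TSSs with a peak within 500 bp (right, %) for each member, with 1 bar per cell line and 1 library behind each bar; a printed 0 marks an empty bar. PBX3 was covered for 29.9% in Molm13 and 40.4% in OCI-AML3 and had no body peak in HL-60 or K562, whereas PBX2, the shortest member, was covered in all 4 lines.

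MEIS1 encodes the TALE factor best known as the partner of HOXA9 in leukaemia. The gene spans 140418 bp on the plus strand of chromosome 2 (positions 66433452 to 66573869), with 17 annotated TSSs and no other protein-coding gene within its window. Of these TSSs, 15 were marked in Molm13, 15 in OCI-AML3, 7 in K562 and none in HL-60. Peaks covered 49152 bp of the body in OCI-AML3 (35.0%), 38565 bp in Molm13 (27.5%) and 15649 bp in K562 (11.1%). The body of MEIS1 was free of peaks in HL-60, where the window held a single peak of 523 bp that lay 50786 bp from the nearest MEIS1 TSS. By covered base pairs, 40 protein-coding genes exceeded MEIS1 in Molm13, against 45 in OCI-AML3 and 649 in K562. Base pairs favour long genes, and by covered share of the body MEIS1 stood at percentile 94.4 in OCI-AML3, 93.2 in Molm13 and 73.9 in K562.

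The promoter of MEIS1 carried 1 very broad peak in each of Molm13 and OCI-AML3. In Molm13 it ran from 66435064 to 66449596 (14533 bp), with a fold enrichment of 9.05, and in OCI-AML3 from 66433103 to 66452864 (19762 bp), with a fold enrichment of 5.13. Fold enrichment is the caller's ratio of signal to local background and is comparable only within a list. On that scale these peaks lay at percentiles 94.9 and 95.7 of their lists, and only 95 Molm13 and 69 OCI-AML3 peaks were wider. The K562 promoter peak was much narrower, from 66434750 to 66437017 (2268 bp), at percentile 64.5 of its list (fold enrichment 3.13), and a second K562 peak of 299 bp lay just upstream of the first TSS. Of the 14 TSSs within 12 kb of the 5′ end, 14 were marked in OCI-AML3, 13 in Molm13 and 7 in K562. All 7 K562 marks fell within 4 kb of the 5′ end, whereas the promoter peaks of Molm13 and OCI-AML3 ended 16.1 and 19.4 kb into the gene. The OCI-AML3 promoter peak and the small upstream K562 peak also reached a TSS of the antisense gene MEIS1-AS3, and both broad peaks reached a TSS of MEIS1-AS2. H3K27ac has no strand, so the acetylation of the sense and antisense start sites cannot be told apart.

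The RefSeq promoter window of MEIS1 (GRCh38.p14, chr2:66434875-66435174, plus strand, 250 bases before to 50 after the start) is shown because the 3 marked lines differed in how much of it they covered. Capitals mark matches, on either strand, to any of 5 short motifs: TGACAG (bound by MEIS), TGATNNAT (PBX with HOX), AGATAA (bound by GATA factors), GAGGAA (bound by PU.1) and TGTGGT (bound by RUNX).
MEIS1: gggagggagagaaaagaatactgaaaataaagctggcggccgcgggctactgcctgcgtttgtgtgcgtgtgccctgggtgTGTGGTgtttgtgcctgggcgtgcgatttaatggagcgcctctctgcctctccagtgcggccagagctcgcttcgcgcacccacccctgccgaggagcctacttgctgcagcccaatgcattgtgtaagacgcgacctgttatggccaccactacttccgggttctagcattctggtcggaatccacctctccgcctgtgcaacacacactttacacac
All 300 bases lay in a peak in OCI-AML3 and K562 and 111 bases, at the downstream end, in Molm13. The window held 1 match, to the RUNX motif, which 13.1% of the 35116 RefSeq promoter windows hold. It had 18 CpG dinucleotides, at percentile 56.3 of all windows.

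Inside the MEIS1 gene the lines shared only part of their peaks. Molm13 and OCI-AML3 had 32096 covered base pairs in common, which is 83.2% of the Molm13 and 65.3% of the OCI-AML3 total. K562 shared 40.4% of its covered base pairs with Molm13 and 51.2% with OCI-AML3. When the peaks of the 4 lines were joined by overlap, 18 regions touched the gene body. Of these, 5 were formed by Molm13, OCI-AML3 and K562 together, as were 4.69% of the 74697 joined regions of the genome, and 5 by Molm13 and OCI-AML3 only, a pattern found in 10.1% of them. A further 3 regions were formed by K562 only, as were 28.0% of all regions, and 3 by OCI-AML3 only (14.6% of all). Molm13 alone formed 1 (12.7%), and OCI-AML3 with K562 formed 1 (2.40%). The K562-only regions lay 31.8 to 53.9 kb into the gene and were 245 to 1790 bp long.

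Away from the start sites, the peak of MEIS1 with the highest fold enrichment lay in the distal part of the gene. It ran from 66553136 to 66557683 in Molm13 (4548 bp, fold enrichment 5.58, percentile 77.4) and from 66553054 to 66559000 in OCI-AML3 (5947 bp, fold enrichment 4.17, percentile 84.0), about 120 kb from the 5′ end. Neither HL-60 nor K562 had a peak there. The central 300 bp of the stretch common to both lines (hg38, chr2:66555259-66555558, plus strand, in an intron) are printed as the strongest intragenic element of MEIS1; this element and those of PBX3 and MEIS2 below were chosen after their values were seen.
MEIS1 distal element: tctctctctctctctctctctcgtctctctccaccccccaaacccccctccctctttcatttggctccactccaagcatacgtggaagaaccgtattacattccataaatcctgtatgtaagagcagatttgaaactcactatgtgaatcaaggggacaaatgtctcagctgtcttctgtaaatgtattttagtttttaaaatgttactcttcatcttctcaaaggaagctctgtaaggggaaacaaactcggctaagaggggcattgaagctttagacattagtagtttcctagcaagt
None of the 5 motifs matched in this window, which says only that these letters were not in it. It held 4 CpG dinucleotides, near the middle of the central 300 bp windows of Molm13 peaks (percentile 49.6). At the 3′ end, an OCI-AML3 peak of 3268 bp (fold enrichment 3.74, percentile 75.3) reached past the end of MEIS1 and lay within 500 bp of a TSS of the non-coding gene LINC01798.

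PBX3 encodes a PBX protein that pairs with HOXA9 and MEIS1 in leukaemic cells. The gene spans 220033 bp on the plus strand of chromosome 9 (positions 125747345 to 125967377) and has 12 annotated TSSs, and its only protein-coding neighbour within the window is MAPKAP1, which encodes a subunit of the mTORC2 complex. The lines fell into 2 sets at PBX3. In Molm13 and in OCI-AML3, 11 of the 12 TSSs were marked, and in HL-60 and K562 none was. Peaks covered 65861 bp of the body in Molm13 (29.9%) and 88807 bp in OCI-AML3 (40.4%), and no base pair in HL-60 or K562. By covered base pairs, only 8 protein-coding genes exceeded PBX3 in Molm13 and 9 in OCI-AML3. By covered share of the body it stood at percentile 93.9 and 95.4, and by covered share of the window at percentile 97.3 and 99.1, against 19.0 in HL-60 and 16.3 in K562. Each list was also cut to the 20814 peaks ranked highest by the caller's p-value, which is the length of the HL-60 list. PBX3 then had 51983 bp covered in the window in Molm13, 63131 bp in OCI-AML3, 979 bp in HL-60 and 1006 bp in K562. The same lines were marked at a TSS of PBX3. The split at PBX3 was therefore present also when all lists had the length of the shortest.

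**Figure D2:**
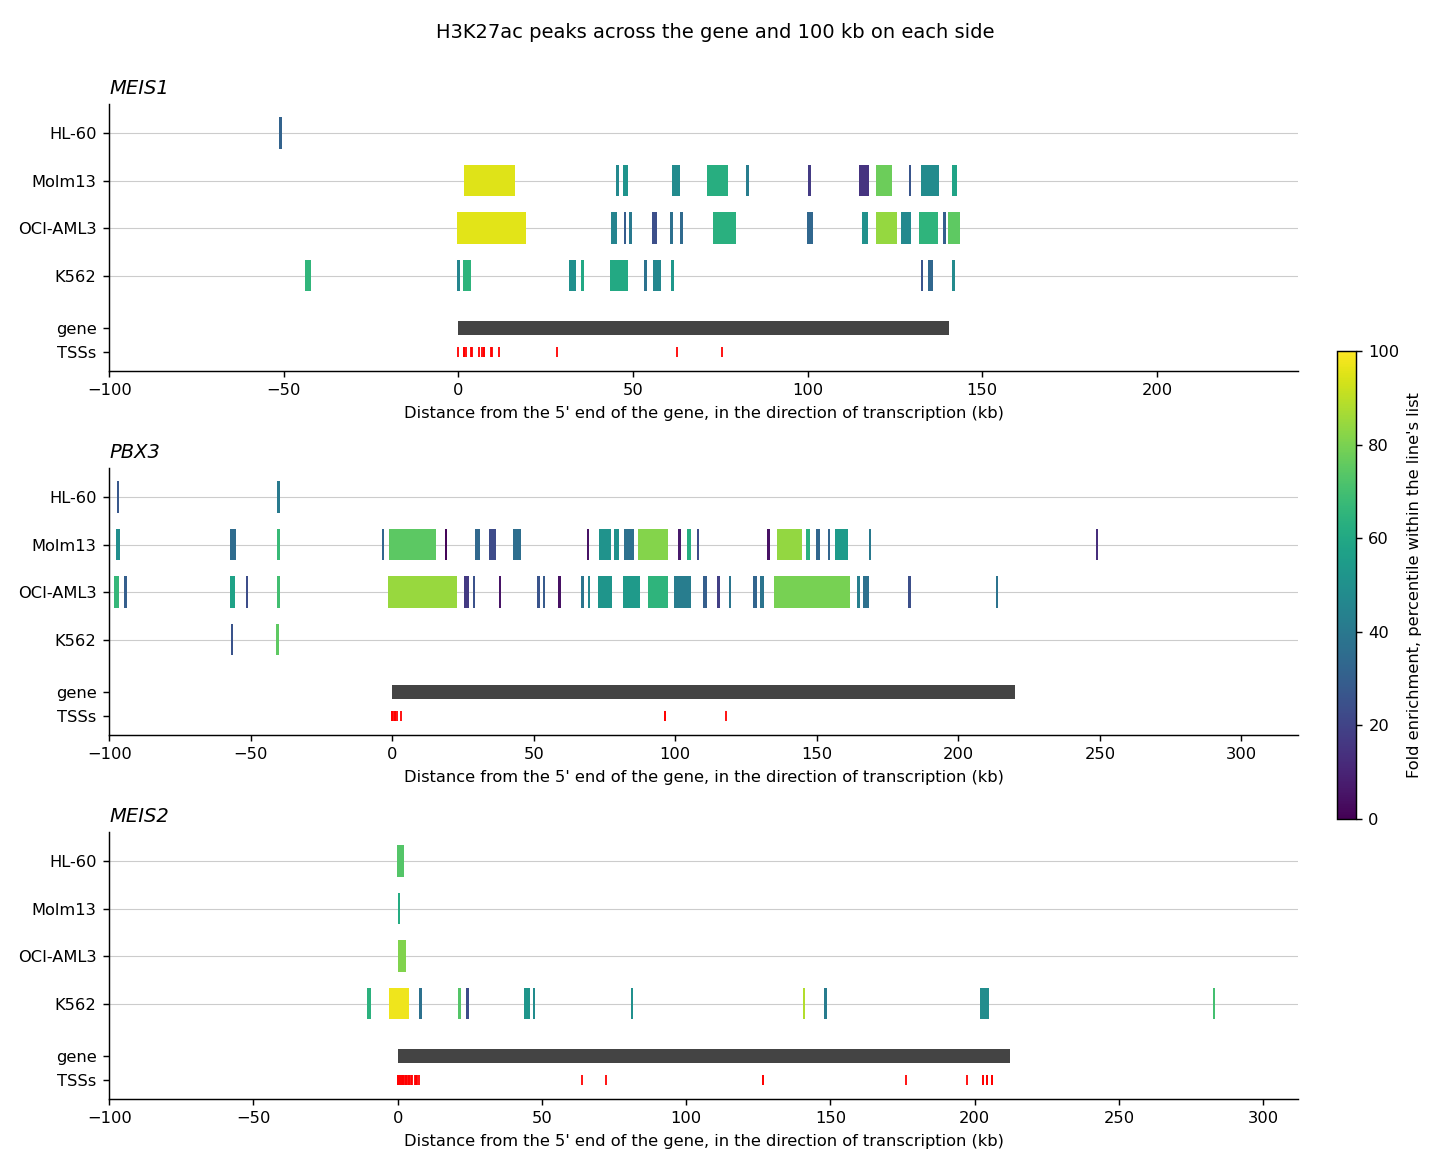
H3K27ac peaks in 4 cell lines along MEIS1, PBX3 and MEIS2; the x axis gives the distance in kb from the 5′ end in the direction of transcription and extends 100 kb beyond the gene. Boxes are peaks (drawn at least 0.8 kb wide), coloured by the percentile of their fold enrichment within the line's own list; the dark bar is the gene body and red ticks are annotated TSSs. Molm13 and OCI-AML3 carried broad peaks along MEIS1 and PBX3, HL-60 had no peak in the body of either gene, and K562 had the most peaks in MEIS2.

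The PBX3 promoter peak ran from 125746156 to 125762957 in Molm13 (16802 bp, fold enrichment 5.31, percentile 74.7) and from 125745823 to 125770163 in OCI-AML3 (24341 bp, fold enrichment 4.19, percentile 84.4). Only 59 Molm13 and 33 OCI-AML3 peaks were wider. All 9 TSSs within 4 kb of the 5′ end lay in or near this peak in both lines, together with a TSS of the divergent non-coding gene PBX3-DT. The promoter thus stood out in width more than in fold enrichment. The RefSeq promoter window (GRCh38.p14, chr9:125747933-125748232, plus strand) is shown with the same capitals, since it was covered completely in Molm13 and OCI-AML3 and not at all in the other lines.
PBX3: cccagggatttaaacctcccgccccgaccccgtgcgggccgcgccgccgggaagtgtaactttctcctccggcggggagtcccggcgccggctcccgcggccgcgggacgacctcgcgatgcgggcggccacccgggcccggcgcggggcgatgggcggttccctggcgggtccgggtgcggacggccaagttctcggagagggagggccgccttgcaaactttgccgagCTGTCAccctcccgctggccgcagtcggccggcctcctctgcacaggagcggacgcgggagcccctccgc
It held 43 CpG dinucleotides (percentile 95.4 of all windows) and a G and C content of 76.0%. Its single match was to the MEIS motif, on the strand opposite to the printed one, which 15.8% of all windows hold.

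A second cluster of PBX3 marks lay about 96 kb into the gene, where the annotation places 2 TSSs of transcripts without a defined coding sequence. The peak over them ran from 125834319 to 125844743 in Molm13 (10425 bp, fold enrichment 6.10, percentile 81.6) and from 125837693 to 125844721 in OCI-AML3 (7029 bp, fold enrichment 3.34, percentile 64.9). The remaining TSS, 118 kb into the gene and assigned to a protein-coding transcript, was marked in no line. Further downstream, a peak without a TSS ran from 125883121 to 125892034 in Molm13 (8914 bp, fold enrichment 6.39, percentile 83.7), the strongest peak of the gene in that line. In OCI-AML3 it lay within a peak of 26899 bp, from 125882273 to 125909171 (fold enrichment 3.93, percentile 79.6), and only 20 peaks of that list were wider. Molm13 listed 5 separate peaks over the same stretch, so the number of peaks is a less direct measure than the covered base pairs. The central 300 bp of the stretch common to both lines are printed (hg38, chr9:125887427-125887726, plus strand, in an intron).
PBX3 intragenic element: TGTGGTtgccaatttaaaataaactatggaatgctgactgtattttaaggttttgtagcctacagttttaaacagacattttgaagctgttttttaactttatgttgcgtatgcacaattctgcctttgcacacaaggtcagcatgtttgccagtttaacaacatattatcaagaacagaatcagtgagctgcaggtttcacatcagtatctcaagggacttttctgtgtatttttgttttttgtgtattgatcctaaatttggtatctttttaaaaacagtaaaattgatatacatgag
The window held 1 match to the RUNX motif, found in 19.5% of the central 300 bp windows of Molm13 peaks, and 1 CpG dinucleotide.

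Exons made up 3.12% of the covered PBX3 sequence in Molm13 and 2.29% in OCI-AML3. Molm13 and OCI-AML3 shared 51544 covered base pairs, 78.3% of the Molm13 and 58.0% of the OCI-AML3 total. Of 29 joined regions in the body, 6 were formed by both lines, and these held the broad peaks and spanned 78732 bp. The 16 regions found in OCI-AML3 only spanned 14957 bp and the 7 found in Molm13 only 10957 bp. Over the genome, 10.1% of joined regions were formed by both lines alone, 14.6% by OCI-AML3 only and 12.7% by Molm13 only. The median percentile of fold enrichment over all peaks at the PBX3 TSSs or in its body was 36.2 in Molm13 and 38.2 in OCI-AML3. HL-60 and K562 were not without peaks near PBX3. A region from 125706175 to 125707717, at a TSS of MAPKAP1, was marked in all 4 lines, and HL-60 and K562 each had 1 other peak in the window.

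**Figure D3:**
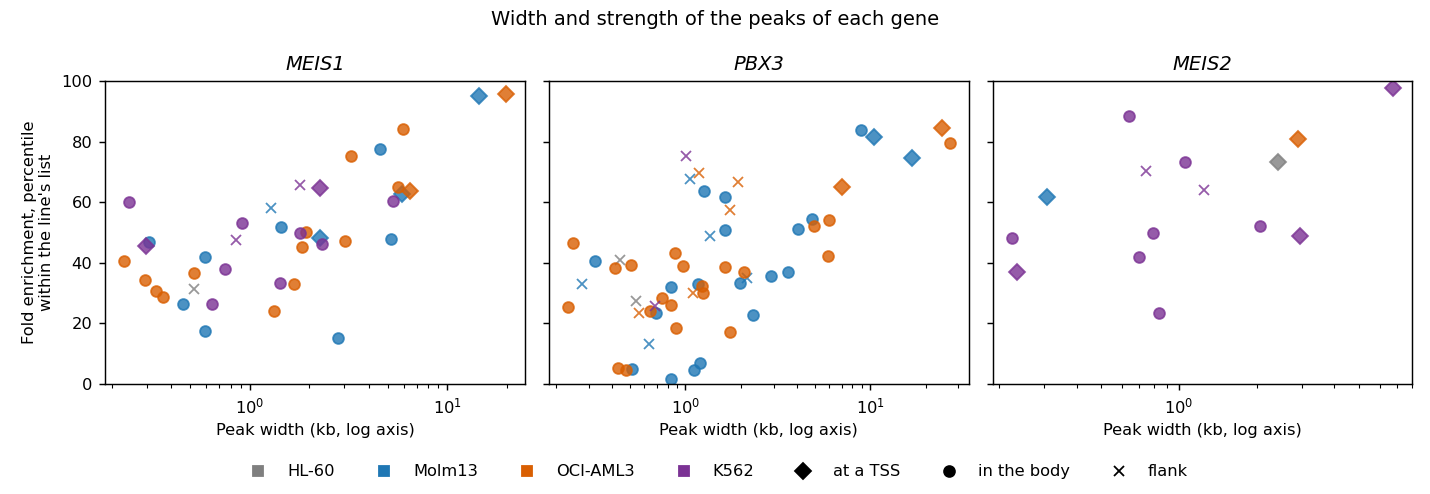
Width (x axis, kb, log axis) against fold enrichment (y axis, percentile within the line's own list) of every peak in the windows of MEIS1, PBX3 and MEIS2; colours are cell lines, diamonds are peaks within 500 bp of a TSS of the gene, circles other peaks in the body and crosses peaks in the flanks. The broad MEIS1 promoter peaks of Molm13 and OCI-AML3 lay above percentile 94, the PBX3 promoter peaks were as broad at percentiles 74.7 and 84.4, and the highest MEIS2 point was the K562 promoter peak at percentile 97.5.

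MEIS2, a close relative of MEIS1 known from neural, limb and heart development, spans 212096 bp on the minus strand of chromosome 15 (positions 36889204 to 37101299). It has 36 annotated TSSs, of which 21 were marked in K562, 14 in OCI-AML3, 10 in HL-60 and 4 in Molm13. The order of the lines differed from that of MEIS1 and PBX3, with K562 highest and Molm13 lowest. Peaks covered 13355 bp of the body in K562, 2889 bp in OCI-AML3, 2050 bp in HL-60 and 278 bp in Molm13, or 6.30%, 1.36%, 0.967% and 0.131%. Among protein-coding genes the covered share of the body stood at percentile 63.2 in K562, 58.0 in HL-60, 43.5 in OCI-AML3 and 38.3 in Molm13. The covered share of the window stood at percentile 49.9 in K562, 30.6 in HL-60, 17.9 in OCI-AML3 and 9.44 in Molm13.

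HL-60, Molm13 and OCI-AML3 each listed a single peak in the whole MEIS2 window, at its 5′ end. It was 2417 bp long in HL-60 (37099250 to 37101666, fold enrichment 4.65, percentile 73.1), 306 bp in Molm13 (37101022 to 37101327, fold enrichment 4.31, percentile 61.7) and 2889 bp in OCI-AML3 (37098381 to 37101269, fold enrichment 4.00, percentile 80.9). The Molm13 peak was narrower than 32356 peaks of its list and within 500 bp of 4 TSSs, all of which were marked in the other lines too. K562 had 12 peaks in the window. The promoter peak among them was 6787 bp long (37097434 to 37104220, fold enrichment 4.65) and lay at percentile 97.5 of its list, with 920 peaks stronger. Of the 23 TSSs within 8 kb of the 5′ end, 17 were marked in K562, and 6 were marked in no line. Another 4 TSSs, 203 to 204 kb into the gene and all of retained-intron transcripts, were marked in K562 only, by a peak from 36896392 to 36899339 (2948 bp, fold enrichment 2.83, percentile 48.8).

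Of the 10 joined regions in the MEIS2 body, 9 were formed by K562 only and 1 by all 4 lines, patterns found in 28.0% and 11.7% of the joined regions of the genome. Besides the promoter, the K562 peak with the highest fold enrichment was a narrow intronic one from 36960274 to 36960910 (637 bp, fold enrichment 3.94, percentile 88.5), about 140 kb into the gene. The RefSeq promoter window (GRCh38.p14, chr15:37099057-37099356, minus strand) and the central 300 bp of this intronic peak (hg38, chr15:36960442-36960741, plus strand) are shown, since the first was covered in 3 lines and the second in K562 alone.
MEIS2: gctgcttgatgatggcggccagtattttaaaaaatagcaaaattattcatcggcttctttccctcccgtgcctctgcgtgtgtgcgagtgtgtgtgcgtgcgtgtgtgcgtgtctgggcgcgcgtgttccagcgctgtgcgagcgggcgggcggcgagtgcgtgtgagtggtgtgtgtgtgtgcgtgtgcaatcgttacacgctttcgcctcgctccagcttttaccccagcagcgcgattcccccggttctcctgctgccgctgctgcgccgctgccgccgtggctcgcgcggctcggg
MEIS2 intronic element: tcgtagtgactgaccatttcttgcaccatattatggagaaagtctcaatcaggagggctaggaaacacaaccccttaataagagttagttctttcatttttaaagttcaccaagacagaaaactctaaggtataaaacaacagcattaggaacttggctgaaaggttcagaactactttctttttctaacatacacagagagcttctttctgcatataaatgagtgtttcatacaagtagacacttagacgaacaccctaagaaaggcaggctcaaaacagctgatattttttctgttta
The promoter window was covered completely in OCI-AML3 and K562 and for 107 bases in HL-60. It was not covered in Molm13, whose only peak lay upstream of it. It held 35 CpG dinucleotides, at percentile 86.6 of all windows. Neither MEIS2 window held a match to the 5 motifs. The motif of GATA factors is found in 20.6% of the central windows of K562 peaks and in 14.9% of those of Molm13 peaks. RefSeq lists a second MEIS2 promoter window (chr15:37098647-37098946), covered completely in OCI-AML3 and K562 and not in the other lines, with 1 match each to the PBX with HOX motif (7.40% of all windows) and the PU.1 motif (27.9%).

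PBX2, a broadly expressed PBX gene, was like MEIS2 marked at a TSS in every line, though least in HL-60. It is only 5470 bp long, on the minus strand of chromosome 6 (positions 32184733 to 32190202) in the gene-dense major histocompatibility region, with 5 TSSs and 14 other protein-coding genes in its window. All 5 TSSs were marked in Molm13, OCI-AML3 and K562 and 2 in HL-60. Peaks covered 4375 bp of the body in K562 (80.0%), 3758 bp in Molm13 (68.7%) and 3594 bp in OCI-AML3 (65.7%), but only 450 bp in HL-60 (8.23%). The promoter peak was 3985 bp long in HL-60 (fold enrichment 3.65, percentile 52.0), 10413 bp in Molm13 (fold enrichment 7.92, percentile 91.5) and 7285 bp in OCI-AML3 (fold enrichment 4.78, percentile 92.5). In K562 the gene was overlapped by peaks of 12135 bp and 9327 bp (fold enrichment 3.96 and 4.11, percentiles 88.8 and 91.6), both within 500 bp of a PBX2 TSS. HL-60 was again the line with the least coverage. Its call rested on a peak near the middle of its list in fold enrichment, with a q-value of 0.00337. The peak was broad, with 448 peaks of that list wider.

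Acetylation at PBX2 cannot be assigned to PBX2 alone. Every peak of the PBX2 window in every line also lay within 500 bp of a TSS of another gene. The promoter peak reached GPSM3, a regulator of G protein signalling in leukocytes, in all 4 lines, and also NOTCH4 in Molm13 and K562. The second K562 peak also served AGER, AGPAT1 and RNF5. When peaks were assigned to the gene with the nearest protein-coding TSS, PBX2 had 10413 bp in Molm13, 9327 bp in K562, 7285 bp in OCI-AML3 and 3985 bp in HL-60, and Molm13 rather than K562 ranked highest. The promoter window (GRCh38.p14, chr6:32190153-32190452, minus strand) was covered completely in all 4 lines.
PBX2: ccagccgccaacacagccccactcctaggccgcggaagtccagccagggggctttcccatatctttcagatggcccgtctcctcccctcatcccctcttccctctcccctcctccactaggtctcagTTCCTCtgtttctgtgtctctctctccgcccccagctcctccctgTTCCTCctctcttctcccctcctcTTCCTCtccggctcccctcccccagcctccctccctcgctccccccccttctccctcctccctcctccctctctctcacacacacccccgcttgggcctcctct
It held 3 matches to the PU.1 motif, all on the strand opposite to the printed one. Of all windows, 27.9% hold this motif. The PBX2 window had only 8 CpG dinucleotides (percentile 40.4).

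MEIS3 and PBX4 had no TSS peak in any line. MEIS3, the third MEIS gene, lies on chromosome 19 (positions 47403124 to 47419527, minus strand) with 13 TSSs. It had no body peak either, and the nearest peak to a MEIS3 TSS was 19358 bp away in Molm13, 37979 bp in HL-60, 38185 bp in OCI-AML3 and, farthest, 56508 bp in K562. Its window was not poor in acetylation and held 6 peaks in HL-60 and in OCI-AML3 and 9 in Molm13 and in K562, of which 4 and 5 per line, respectively, were at TSSs of other genes. A peak over KPTN and NAPA-AS1 in Molm13 had a fold enrichment of 19.7, and only 3 peaks of that list were stronger. No peak in the window had a MEIS3 TSS as its nearest protein-coding TSS. Both RefSeq promoter windows of MEIS3 were uncovered in every line, with 14 and 13 CpG dinucleotides, close to the median of 14 over all windows. They held 2 matches and 1 match to the PU.1 motif, respectively.

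PBX4, known chiefly from testis, lies on the same chromosome (positions 19561707 to 19618693, minus strand) with 5 TSSs. Only OCI-AML3 had peaks in its body, and these were among the weakest of the list, with lengths of 1037 and 472 bp and fold enrichments of 2.45 and 2.48 (percentiles 15.6 and 17.5). The nearest peak to a PBX4 TSS was 9884 bp away in OCI-AML3, 14029 bp in Molm13, 14166 bp in HL-60 and 24109 bp in K562. The PBX4 window held 9, 8, 7 and 7 peaks in these lines, of which 5, 4, 4 and 4 were at TSSs of other genes, and GMIP, ATP13A1, ZNF101 and NDUFA13 were marked in all 4. The PBX4 promoter window had 35 CpG dinucleotides, as many as that of MEIS2, and was uncovered in every line.

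**Figure D4:**
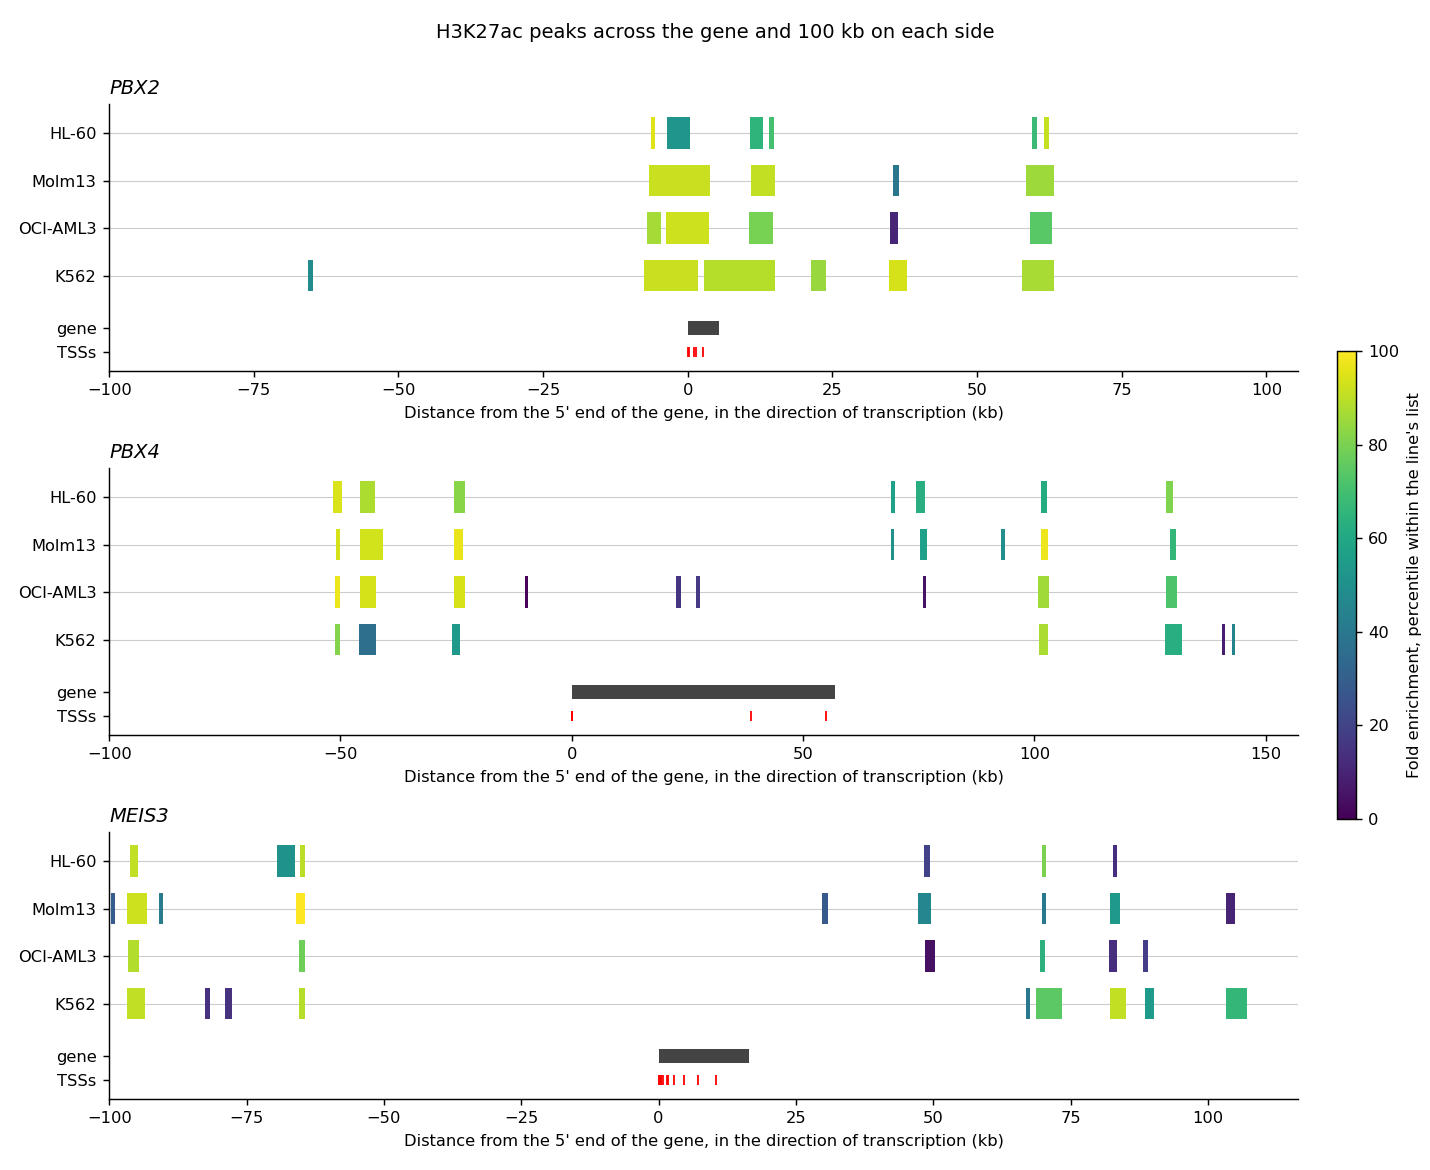
H3K27ac peaks in 4 cell lines along PBX2, PBX4 and MEIS3, with the x axis in kb from the 5′ end in the direction of transcription and 100 kb on each side; boxes are peaks (drawn at least 0.8 kb wide), coloured by the percentile of their fold enrichment within the line's own list, dark bars are gene bodies and red ticks annotated TSSs. PBX2 lay within peaks in Molm13, OCI-AML3 and K562, whereas peaks around PBX4 and MEIS3 lay away from their start sites.

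Ranked by covered share of the window, which adds the neighbours of each gene, the members kept distinct profiles. MEIS1 stood at percentile 91.1 in Molm13, 95.6 in OCI-AML3, 56.1 in K562 and 16.4 in HL-60. PBX2 stood between 82.1 and 91.5 in all lines. MEIS3 and PBX4 reached percentiles of 80.4 and 89.5 in HL-60 without any peak at their own start sites; a window percentile includes the peaks of neighbouring genes.

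**Figure D5:**
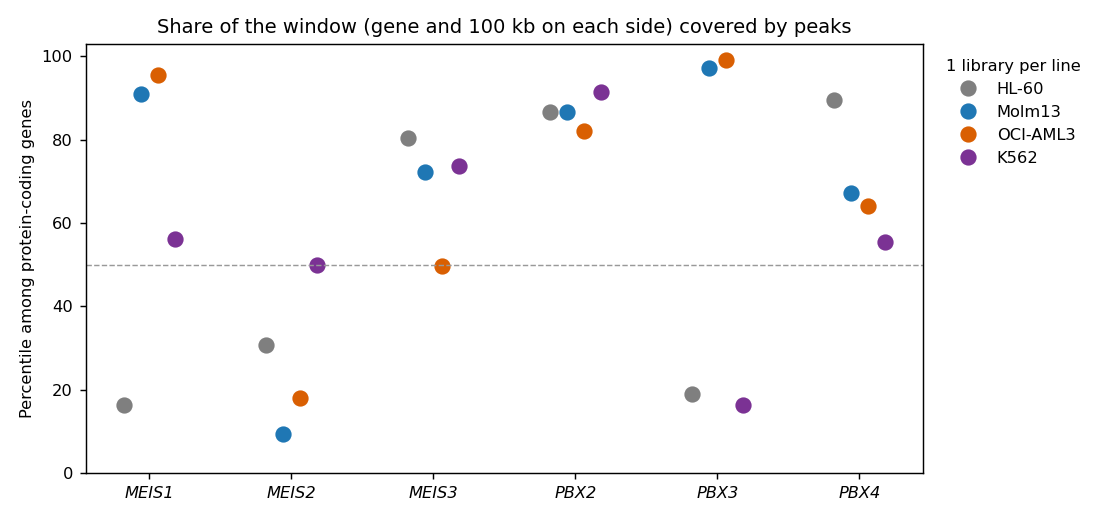
Percentile of each member among 20033 protein-coding genes by the share of its window (gene and 100 kb on each side) covered by H3K27ac peaks, with 1 point per cell line and 1 library behind each point; the dashed line marks percentile 50. MEIS1 and PBX3 were above percentile 90 in Molm13 and OCI-AML3 and below 20 in HL-60, and PBX2 was above 80 in all 4 lines.

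The protein-coding genes with the most similar covered window share over the 4 lines, by Euclidean distance in percentage points, were MS4A6A (distance 1.62), CCRL2 (2.28) and RNF19B (2.43) for MEIS1. For PBX3, PARP8 (2.28) was among the 3 closest. The nearest gene was MYO3B for MEIS2 (0.252), ARHGDIG for MEIS3 (0.748), S100A13 for PBX2 (0.491) and TCOF1 for PBX4 (0.535). These distances rest on 4 libraries and describe the lists only.

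HOX proteins are the DNA-binding partners of MEIS and PBX, and 14 HOXA and HOXB genes were set beside the members. A TSS peak was listed for 10 of them in OCI-AML3 (71.4%), 6 in K562 (42.9%), 5 in Molm13 (35.7%) and none in HL-60. Among all protein-coding genes the shares were 57.7% in OCI-AML3, 55.9% in K562, 53.9% in Molm13 and 44.7% in HL-60. The HOX share was thus above that of all genes in OCI-AML3 and below it in the other lines. HOXA5 and HOXB8 were marked in no line. The Molm13 genes were all from the HOXA cluster (HOXA6, HOXA7, HOXA9, HOXA10 and HOXA11). The K562 genes were all from the HOXB cluster (HOXB2, HOXB3, HOXB4, HOXB6, HOXB7 and HOXB9). OCI-AML3 had both, with HOXA7, HOXA9, HOXA10 and HOXA11 and HOXB2 to HOXB7. HOXA9, which encodes the chief partner of MEIS1 in leukaemia, was covered over 97.6% of its body in Molm13 and 100% in OCI-AML3 and had no body peak in HL-60 or K562. HOXA genes were thus listed with TSS peaks in the lines in which PBX3 was marked and MEIS1 was broadly marked, and the K562 promoter of MEIS1 was marked without them. Genes of 1 cluster share peaks and are not independent of each other.

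The remaining TALE genes did not follow this division. Of 11 relatives, 6 had a TSS peak in OCI-AML3 (54.5%), 5 in HL-60 and in Molm13 (45.5%) and 4 in K562 (36.4%), which is near or below the shares of all genes given above. PKNOX1, which encodes a MEIS-related partner of PBX, was marked in all 4 lines, as were the repressor genes TGIF1 and TGIF2 and the Iroquois gene IRX5. IRX3 was marked in the 3 AML lines, with 100% of its body covered in OCI-AML3, 93.1% in HL-60 and 7.86% in Molm13. MKX was marked in OCI-AML3 only. IRX1, IRX2, IRX4, IRX6 and PKNOX2 were marked in no line.

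The study also mapped dCas9 in K562 cells that carried 4 sgRNAs against LTR2B, a long terminal repeat family of endogenous retroviruses. None of the 395 dCas9 peaks lay in the window of a member. The nearest lay 489583 bp from MEIS3, and the distance reached 11161491 bp for MEIS1, so this list gave no dCas9 peak by which the members could be compared.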

How the data were processed

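Chromatin immunoprecipitation with sequencing was analysed as peak lists: H3K27ac in HL-60, Molm13, OCI-AML3 and K562, and dCas9 in K562. The other 14 of the 19 samples were not analysed here. The study's methods state that the authors trimmed adapters, aligned them to hg38 with Bowtie2, kept uniquely mapped reads and called peaks with MACS2 (broad option for histone marks) at a stated q-value of 0.05; the submitters' processing notes give Trim Galore 0.4.5 and MACS2 2.1.1. The control library is not given in the sources used here. The deposited lists hold positions, a score, the fold enrichment (a ratio), and the −log10 p-value and −log10 q-value computed by the authors. The largest q-value of the H3K27ac lists was between 0.0947 and 0.0995, and 5.46% to 15.0% of peaks were above 0.05. Read depth was unknown, so no interval could be given.

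Samples were grouped by title. Genes and TSSs came from GENCODE 44 and promoter windows from RefSeq (GRCh38.p14), in which all 6 members matched, with 8 windows. The homeodomain proteins were not analysed here. Coordinates are 1-based. Overlaps needed 1 bp, and peak lengths were clipped to the body or window. Percentiles count genes or peaks below, plus ties shared equally. Each line had 1 library, so no test was run. The TALE, HOX and marker lists and the members were chosen with earlier results of these data known. All members were named, with the 3 protein-coding genes closest in covered window share, leaving out overlapping windows; some of these genes are not reported here. Alternatives changed the q-value limit, the TSS distance, the transcripts, the list length, the flank, the joining of peaks and their assignment. Python 3.11.15, NumPy 2.4.6, pandas 2.3.3 and matplotlib 3.10.9 were used, and the overlap code was tested on simulated data.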

Additional observations from a re-analysis of the deposited data

How the results depend on the processing

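The number of members with a TSS peak changed in 2 of 24 recomputations, by over 1.5 times in 1 of them. With a q-value limit of 0.001, HL-60 had 1 marked member (MEIS2) instead of 2, since the PBX2 peak was lost. Covering at least 50% of the TSS region left 3 members in Molm13, without MEIS2. MEIS1 and PBX3 were marked in the same lines under all 6 alternatives. The number of marked TSSs of a member moved by over 1.5 times in 15 of 144 recomputations, of which 11 counted protein-coding transcripts only, and the summed peak length in the window in 53 of 168, of which 15 used the gene body only, 14 the nearest TSS and 12 the q-value limit. With that limit, MEIS1 had 26242 bp in Molm13, 41070 bp in OCI-AML3, 4073 bp in K562 and 0 bp in HL-60, and PBX3 had 46278, 63131, 1006 and 0 bp. The order of the lines for MEIS1 (OCI-AML3, Molm13, K562, HL-60) and for MEIS2 (K562, OCI-AML3, HL-60, Molm13) was the same under all 7 alternatives for length. That of PBX2, PBX4 and MEIS3 was not, and MEIS3 had 0 bp in every line under nearest-TSS assignment. No paired analysis was possible because every line was represented by a single peak list, and for the same reason no replicate could be left out. Unknown depth limits the meaning of a missing peak, and the HL-60 list was the shortest.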
